A study of Mus musculus with 13 samples.

Results

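The 9 genes described here, Cx3cr1, Tmem119, Selplg, Fcrls, Gpr34, Siglech, Crybb1, Olfml3 and Slc2a5, are markers of homeostatic microglia, the state of the brain's resident macrophages in the undisturbed tissue. They were taken by gene symbol from a deposited table of 19737 genes. All 9 were present, and all 9 had a mean of at least 1 FPKM, the minimum that left 10817 genes to test. FPKM counts the fragments on a gene per kilobase of its exons and scales them to the library's total, so levels can be compared between genes.

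Homeostatic microglia carry a set of receptors and sensors through which they follow the state of neurons and other cells, and their identity depends on TGF-beta and CSF1 receptor signalling and on transcription factors such as PU.1, IRF8, MEF2 and SALL1. In mice that accumulate amyloid, microglia around plaques are known to lower many of these genes while they raise lipid-handling and lysosomal genes under control of TREM2 and its adaptor Tyrobp. The list is loosely called surface markers, but not all its products sit in the cell membrane. Cx3cr1 and Gpr34 are G protein-coupled receptors, Selplg (PSGL-1) is a selectin ligand, Siglech is a sialic acid-binding type receptor, Fcrls is related to Fc receptors, Tmem119 is a transmembrane protein used as an antibody marker, and Slc2a5 is the fructose transporter GLUT5. Olfml3 is a secreted olfactomedin-like glycoprotein, and Crybb1 is a beta crystallin, a soluble protein best known from the eye lens.

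RNA from mouse microglia was sequenced in 13 libraries after removal of ribosomal RNA. Wild type mice had received an AAV PHP.eB vector coding for EGFP (n = 3), and so had one group of 5xFAD mice (n = 2). A second 5xFAD group had received AAV PHP.eB with circPOLR2A (n = 4), a circular RNA, and the last group carried 5xFAD and PKR KO, PKR being the kinase activated by double-stranded RNA (n = 4). The 5xFAD mouse expresses mutant human amyloid precursor protein and presenilin under the neuronal Thy1 promoter, and PHP.eB is an AAV capsid that crosses the blood-brain barrier of some mouse strains. No vector is labelled for the PKR knockout mice, so these may differ from both vector-treated 5xFAD groups in more than PKR. The circRNA treatment labels are not the same in all 4 libraries, and whether they share a construct is not settled. Library names are given for the PKR knockout libraries alone, so a difference in library making cannot be told apart from the knockout. The labels state neither age nor sex, nor that libraries come from separate animals, so p-values measure the spread between these libraries, which may be technical.

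Depth, recovered from the steps between low FPKM values, was 45.2 to 70.0 M (mega) fragments. The fewest fragments behind a member were 1151, for Crybb1 (a counting error of 2.95%), and the most were 107904, for Cx3cr1. The gene for PKR, Eif2ak2, was at 3.86 ± 0.64 FPKM (SD, n = 4) in PKR knockout, 6.54 ± 0.07 (SD, n = 2) in 5xFAD EGFP, 7.67 ± 0.33 (SD, n = 4) with circRNA and 4.85 ± 0.61 (SD, n = 3) in wild type. It was lower in PKR knockout than with circRNA (limma adjusted p = 0.00147), its difference from 5xFAD EGFP did not pass (limma adjusted p = 0.0644), and the range overlapped that of wild type. Which part of the gene was deleted is not given in the sources used here. The microglial identity of the libraries was plain: Csf1r, P2ry12, C1qa, C1qb, Aif1 and Itgam were all detected and summed to 1822 to 4154 FPKM, while 4 monocyte genes (Ccr2, Ly6c2, Chil3 and Plac8) summed to at most 1.89 FPKM.

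Wild type replicate 3 stood apart from the other wild type libraries and bears on every comparison with wild type. Its 4 oligodendrocyte genes (Mbp, Mog, Mag, Mobp) summed to 1406 FPKM against 335 and 295 in wild type replicates 1 and 2. Its astrocyte genes were at 3.17 times and its neuron genes at 3.10 times the mean of those libraries, and its oligodendrocyte, astrocyte, neuron, endothelial and mural sums were each the highest of all 13 libraries. In the same library 12 genes shared by all leukocytes, among them Ptprc, Laptm5 and Coro1a, were at 0.642 times the mean of replicates 1 and 2, the lowest sum of the 13. All 9 markers were lowest there within wild type, by 30.3% (Fcrls) to 41.6% (Selplg). Comparisons of the markers with wild type are therefore given with and without this library. In bulk RNA, fewer cells of a type and less RNA in each cell cannot be told apart.

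The sequences just upstream of 3 of the markers are shown because these 3 gave the contrasting patterns described further on: Crybb1 was far lower in 5xFAD, Fcrls was not, and Cx3cr1 serves as the reference for ratios within a library. Of the 9 genes, 6 matched the RefSeq promoter table (GRCm38.p6). Each sequence holds the 250 bases before the RefSeq transcript start, 5′ to 3′ on the gene's strand, and capitals mark a motif match.

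Crybb1 (chr5:112255570-112255819, plus strand): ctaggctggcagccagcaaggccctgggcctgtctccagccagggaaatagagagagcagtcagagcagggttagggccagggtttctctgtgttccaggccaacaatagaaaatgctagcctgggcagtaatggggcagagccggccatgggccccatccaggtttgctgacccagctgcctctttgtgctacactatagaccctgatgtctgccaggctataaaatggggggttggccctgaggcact
Fcrls (chr3:87263525-87263774, minus strand): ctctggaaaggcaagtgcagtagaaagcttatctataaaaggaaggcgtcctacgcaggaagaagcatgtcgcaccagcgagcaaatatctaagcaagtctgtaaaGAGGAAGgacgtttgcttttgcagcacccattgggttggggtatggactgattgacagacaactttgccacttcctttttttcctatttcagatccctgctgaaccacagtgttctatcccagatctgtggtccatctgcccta
Cx3cr1 (chr9:120068297-120068546, minus strand): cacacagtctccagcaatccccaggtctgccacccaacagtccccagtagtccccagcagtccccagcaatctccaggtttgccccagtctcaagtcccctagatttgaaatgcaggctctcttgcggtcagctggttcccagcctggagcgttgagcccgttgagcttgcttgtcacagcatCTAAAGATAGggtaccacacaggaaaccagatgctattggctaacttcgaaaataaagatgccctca

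Motifs of 3 kinds of microglial transcription factor were searched on both strands. The capitals in Fcrls are a PU.1-type GAGGAAG, a match that 10.6% of the 32851 promoters of the same length in the table also hold. The capitals in Cx3cr1 match a loose form of the MEF2 element (CTA, any 4 bases, then TAG). The middle of this match holds a G, where the usual MEF2 element has only A and T. The loose pattern reads the same way on both strands and is held by 3.20% of those promoters. The composite ETS-IRF motif (GGAA, any 2 bases, then GAAA), held by 2.301% of promoters, was in none of the 6 windows, and the windows of Crybb1, Siglech, Olfml3 and Slc2a5 held none of the 3 motifs. These are matches of letters in 1 window and describe no binding.

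With all libraries on the deposited scale, Crybb1 and Tmem119 were the markers that fell in all 3 5xFAD groups. Crybb1 was at 112, 116 and 73.6 FPKM in the 3 wild type libraries, 40.2 and 28.0 in 5xFAD EGFP, 25.6, 36.3, 47.3 and 24.8 with circRNA and 54.1, 35.5, 65.9 and 25.3 in PKR knockout. All 10 5xFAD libraries lay below all 3 wild type libraries, wild type replicate 3 included. The log2 change was -1.52 in 5xFAD EGFP (SE 0.38, limma adjusted p = 0.0182), -1.58 with circRNA (SE 0.32, limma adjusted p = 0.00316) and, for PKR knockout, -1.197 (SE 0.32, limma adjusted p = 0.0117), that is to 0.348, 0.335 and 0.436 of the wild type level. With wild type replicate 3 left out, the log2 changes were -1.73, -1.78 and -1.41 (limma adjusted p = 0.0114, 0.00259 and 0.00827). Log2 changes here and below are of FPKM + 1, which understates the change of genes near 1 FPKM but not of these.

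Tmem119, whose function in microglia is little understood, was at 434, 461 and 300 FPKM in wild type, 206 and 167 in 5xFAD EGFP, 170, 248, 260 and 158 with circRNA and 229, 217, 304 and 177 in PKR knockout. The groups did not overlap except for PKR knockout replicate 3, whose 304.1 FPKM lay just above the 300.009 FPKM of wild type replicate 3. The log2 change was -1.07 in 5xFAD EGFP (SE 0.28, limma adjusted p = 0.0227), -0.94 with circRNA (SE 0.23, limma adjusted p = 0.0111) and, for PKR knockout, -0.78 (SE 0.23, limma adjusted p = 0.0207). Leaving out wild type replicate 3 gave -1.27, -1.13 and -0.97 (limma adjusted p = 0.00883, 0.00463 and 0.00847).

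The calls in 5xFAD EGFP rest on 2 libraries and were lost when either was left out. Without 5xFAD EGFP replicate 1 the log2 change of Tmem119 was -1.22 (limma adjusted p = 0.0734) and that of Crybb1 -1.78 (0.0549). Without 5xFAD EGFP replicate 2 they were -0.92 (0.202) and -1.27 (0.188). The Tmem119 call was also lost without wild type replicate 1 (-1.001, 0.0698) or 2 (-0.96, 0.0602), and the Crybb1 call without wild type replicate 1 (-1.43, 0.0600). With circRNA both calls held in all 13 fits that left out 1 library. In PKR knockout that of Crybb1 held in all 13, and that of Tmem119 was lost without wild type replicate 1 (-0.71, 0.0725), wild type replicate 2 (-0.66, 0.0705) or PKR knockout replicate 4 (-0.66, 0.0590).

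Tmem119 and Selplg are neighbours. In GENCODE M21 (GRCm38) Tmem119 spans chr5:113793729-113800516 and Selplg chr5:113818536-113832644, both on the minus strand, 18019 bases apart with 1 annotated gene, Gm19931, between them. Selplg, whose product binds the selectins of vessel wall and platelets, was at 340, 335 and 197 FPKM in wild type, 209 and 176 in 5xFAD EGFP, 193, 253, 251 and 175 with circRNA and 251, 223, 286 and 210 in PKR knockout. All 10 5xFAD libraries lay below wild type replicates 1 and 2, but only 3 lay below wild type replicate 3. Its log2 changes, -0.56 (SE 0.25), -0.39 (SE 0.21) and -0.23 (SE 0.21) in 5xFAD EGFP, circRNA and PKR knockout, did not pass (limma adjusted p = 0.180, 0.200 and 0.416). When wild type replicate 3 was left out, they were -0.81, -0.65 and -0.49, and all 3 passed (limma adjusted p = 0.0176, 0.0187 and 0.0495).

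Slc2a5, the fructose transporter, had the lowest wild type mean of the 9, at 61.3, 62.4 and 39.8 FPKM in wild type, 37.9 and 30.6 in 5xFAD EGFP, 33.6, 44.8, 41.8 and 28.3 with circRNA and 33.6, 28.1, 38.8 and 24.6 in PKR knockout. All libraries of 5xFAD EGFP and of PKR knockout lay below all wild type libraries, and 2 of the 4 circRNA libraries lay above wild type replicate 3. It fell by 0.77 on the log2 scale in PKR knockout (SE 0.20, limma adjusted p = 0.0115). The changes of -0.63 in 5xFAD EGFP (SE 0.24) and -0.54 with circRNA (SE 0.20) did not pass with all libraries (limma adjusted p = 0.115 and 0.0751). The changes were -0.84, -0.74 and -0.98 with wild type replicate 3 left out, each past the threshold (limma adjusted p = 0.0248, 0.0167 and 0.00266). The PKR knockout call was lost without wild type replicate 1, at -0.68 (limma adjusted p = 0.0502).

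**Figure D1:**
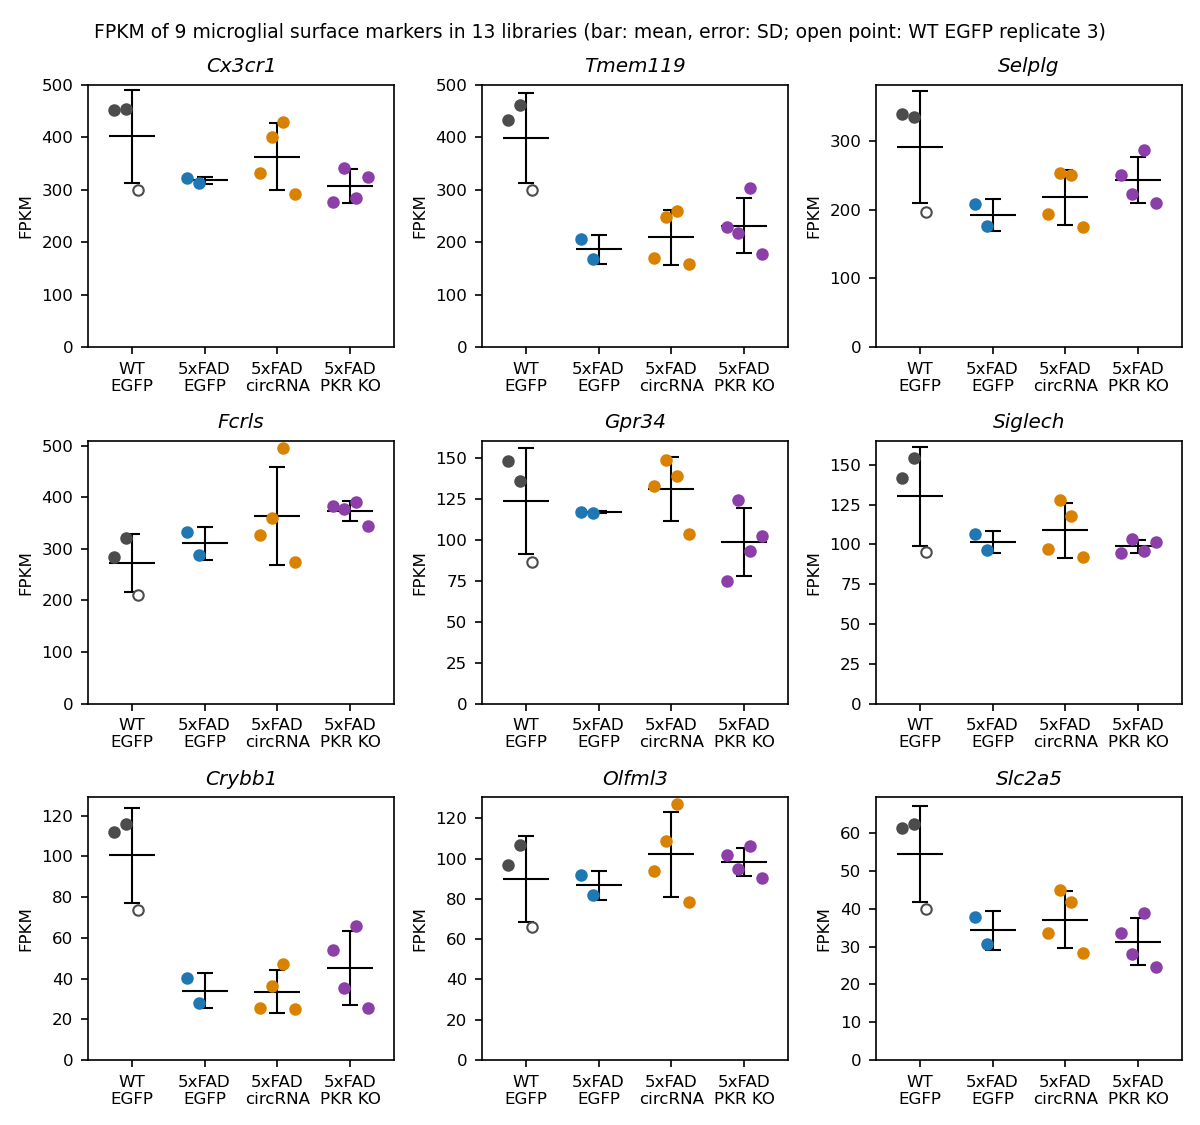
FPKM (linear axes from 0) of each marker in every library of the 4 groups, with the group mean (bar) and SD (error bar); the open point is wild type EGFP replicate 3. For Crybb1 all 10 5xFAD points (24.8 to 65.9 FPKM) lie below the wild type points, while for Fcrls 8 of 10 lie above them.

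Siglech, which signals through the adaptor Tyrobp, was at 142, 154 and 94.97 FPKM in wild type, 106 and 96.5 in 5xFAD EGFP, 97.0, 128, 118 and 92.1 with circRNA and 94.7, 103, 95.8 and 101 in PKR knockout. Wild type replicate 3 lay among the 5xFAD libraries, and the other wild type libraries lay above all 10. The log2 changes of -0.33 (SE 0.20), -0.24 (SE 0.16) and -0.37 (SE 0.16) did not pass (limma adjusted p = 0.319, 0.315 and 0.0973). In the absence of wild type replicate 3, Siglech fell by 0.54, 0.45 and 0.58 on the log2 scale (limma adjusted p = 0.0289, 0.0259 and 0.00554).

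Cx3cr1, the receptor for the neuronal chemokine fractalkine (Cx3cl1), was at 452, 454 and 300 FPKM in wild type, 323 and 314 in 5xFAD EGFP, 331, 401, 430 and 292 with circRNA and 276, 342, 284 and 325 in PKR knockout. It too lay below wild type replicates 1 and 2 in all 10 5xFAD libraries, and 3 of them were below wild type replicate 3. Its log2 changes were -0.31 (SE 0.22), -0.14 (SE 0.18) and -0.37 (SE 0.18), none past the threshold (limma adjusted p = 0.401, 0.635 and 0.128). It fell in PKR knockout by 0.57 without wild type replicate 3 (limma adjusted p = 0.0178), and the changes of -0.51 in 5xFAD EGFP and -0.33 with circRNA did not pass (limma adjusted p = 0.0768 and 0.157). The M21 annotation of Cx3cr1 includes long transcript models that run across neighbouring genes, so its FPKM depends on how those models were counted.

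Gpr34, a receptor for lysophosphatidylserine, was at 148, 136 and 86.6 FPKM in wild type, 117 and 116 in 5xFAD EGFP, 132, 149, 139 and 103 with circRNA and 74.7, 124, 93.0 and 102 in PKR knockout. Of the circRNA libraries 2 reached the level of wild type replicates 1 and 2, and all 4 PKR knockout libraries stayed below it. The log2 changes against wild type were -0.04 (SE 0.25), 0.11 (SE 0.21) and -0.31 (SE 0.21), with limma adjusted p-values of 0.937, 0.756 and 0.255. Leaving wild type replicate 3 out gave -0.28, -0.13 and -0.54, and the fall in PKR knockout passed (limma adjusted p = 0.0373, against 0.384 and 0.655 in the other groups). Gpr34 lies within Cask on the opposite strand, and the strand setting of the counting is not given in the sources used here, so fragments of both genes might have been shared.

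Fcrls and Olfml3 did not pass as lower in any 5xFAD group, with or without wild type replicate 3. Fcrls was at 285, 321 and 211 FPKM in wild type, 333 and 288 in 5xFAD EGFP, 326, 360, 495 and 274 with circRNA and 383, 377, 391 and 344 in PKR knockout. All 4 PKR knockout libraries lay above all wild type libraries, but the log2 change of 0.47 (SE 0.20) did not pass (limma adjusted p = 0.0755), nor did those of 0.21 in 5xFAD EGFP and 0.40 with circRNA (limma adjusted p = 0.629 and 0.157). They were 0.03, 0.23 and 0.30 without wild type replicate 3 (limma adjusted p = 0.936, 0.420 and 0.245). The PKR knockout change passed in 2 of the 13 fits that left out 1 library, at 0.60 without wild type replicate 2 (limma adjusted p = 0.0478) and at 0.47 without circRNA replicate 3 (0.0349).

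Olfml3 was at 96.7, 107 and 66.0 FPKM in wild type, 91.9 and 81.7 in 5xFAD EGFP, 93.6, 109, 127 and 78.4 with circRNA and 102, 94.8, 106 and 90.5 in PKR knockout. It overlapped between wild type and each 5xFAD group, but without wild type replicate 3 both 5xFAD EGFP libraries lay below the other wild type libraries. The log2 changes were -0.02 (95% interval -0.49 to 0.45), 0.19 (-0.20 to 0.58) and 0.16 (-0.24 to 0.55), with limma adjusted p-values of 0.965, 0.495 and 0.526. They were -0.23, -0.02 and -0.05 without wild type replicate 3.

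Counted over the list, 2 of the 9 markers fell in 5xFAD EGFP, where 14% of all genes tested were called (6.35% lower). With circRNA 2 of 9 fell, where 25.8% of genes were called (8.05% lower), and in PKR knockout 3 of 9 fell, where 37% of genes were called (19.4% lower). No marker rose. The median log2 change of the 9 was -0.33, -0.24 and -0.37, against -0.03, 0.02 and -0.05 over all genes tested. Without wild type replicate 3, 5 of 9 fell in 5xFAD EGFP (9.51% of all genes called lower), 5 of 9 with circRNA (8.81%) and 7 of 9 in PKR knockout (19.7%), and the median changes were -0.54, -0.45 and -0.57. The 3 comparisons share their wild type libraries, so they are not separate tests of the same fall.

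**Figure D2:**
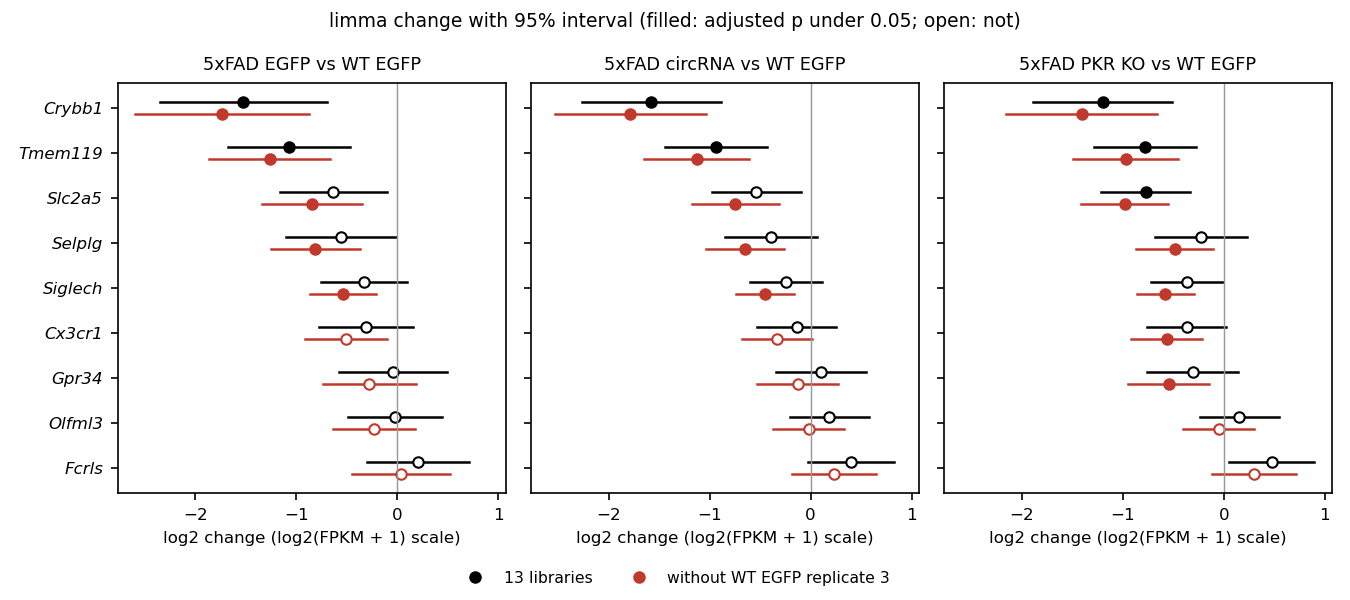
Log2 change of each marker on the log2(FPKM + 1) scale against wild type EGFP in 3 panels (5xFAD EGFP, circRNA, PKR knockout), with 95% intervals from limma; black uses all 13 libraries and red leaves out wild type EGFP replicate 3, filled points have an adjusted p under 0.05. Leaving out that library moves every marker to the left, and the filled points go from 2, 2 and 3 to 5, 5 and 7.

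By separation of the libraries alone, 3 markers (Tmem119, Crybb1 and Slc2a5) were lower in both 5xFAD EGFP libraries than in every wild type library, as were 21.1% of all genes tested. With circRNA these were Tmem119 and Crybb1 (8% of all genes), and in PKR knockout Crybb1 and Slc2a5 (21.1%), with Fcrls above all wild type libraries (19.8%). Without wild type replicate 3 the separated, lower markers numbered 8, 6 and 7 (37.1%, 16.5% and 32.4% of all genes). A separation of this kind is common where groups are this small.

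The scale of the libraries bears on the smaller changes. The 12 genes shared by all leukocytes (pan-leukocyte genes) summed to 666, 669 and 428 FPKM in wild type and 635 to 667 in 5xFAD EGFP. Their sums were 622 to 799 FPKM with circRNA and 709 to 766 in PKR knockout. A rise of these genes within cells would lower every marker on their scale, and was not tested. When each library was scaled to its 12 pan-leukocyte genes, a list that shares Spi1 with the related genes below but none of the 9 markers, 6, 6 and 7 of the 9 markers fell in 5xFAD EGFP, circRNA and PKR knockout, where 5.06%, 11.6% and 31.5% of all genes were called lower. Siglech then changed by -0.39, -0.44 and -0.61 (limma adjusted p = 0.00664, 0.000449 and 2.84e-05) and Cx3cr1 by -0.37, -0.34 and -0.61 (limma adjusted p = 0.0234, 0.00876 and 0.00011). Scaling by the median ratio over all genes left 2, 3 and 3 markers lower (7.39%, 13.9% and 19.2% of all genes) and called Fcrls higher in PKR knockout, at 0.50 (limma adjusted p = 0.0302, with 21.9% of all genes higher). Gpr34 with circRNA was at 0.11 as deposited and -0.09 on the pan-leukocyte scale, and Olfml3 changed sign between these scales in the circRNA and PKR knockout groups, with no call in either direction. Rescaling moved the median of all genes by more than 0.1, to -0.14 with circRNA and -0.24 in PKR knockout on the pan-leukocyte scale. With the FPKM sums made equal it moved to -0.17, -0.20 and -0.24 in the 3 comparisons, 27.7%, 43.3% and 50.1% of all genes were called lower, and 4, 6 and 6 markers were.

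**Figure D3:**
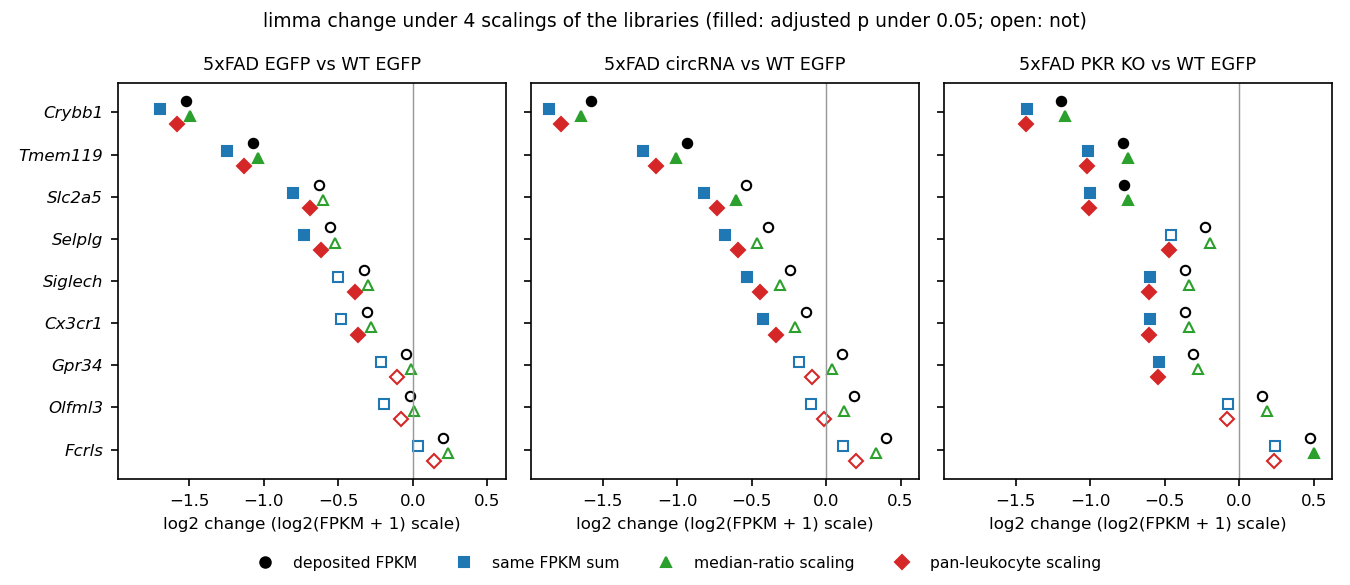
Log2 change of each marker against wild type EGFP under the deposited FPKM and 3 rescalings of the libraries (same FPKM sum, median ratio over all genes, 12 pan-leukocyte genes), on the log2(FPKM + 1) scale; filled points have a limma adjusted p under 0.05. Crybb1 and Tmem119 are filled at the left under all 4 scales in each panel, and Olfml3 stays near 0 and open.

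A ratio of a pair of markers in the same library does not depend on how that library was scaled. These ratios were chosen after the values were seen and are given as a description. In wild type the ratio of Crybb1 to Cx3cr1 was 0.245 to 0.255 over all 3 libraries, replicate 3 included, a coefficient of variation of 1.96%. In the 10 5xFAD libraries it was 0.0773 to 0.232, all below wild type. Wild type replicate 3, which stood apart in its FPKM levels, did not stand apart in this ratio.

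Tmem119 to Cx3cr1 was 0.959 to 1.02 in wild type and lower in 9 of 10 5xFAD libraries, with PKR knockout replicate 3 above at 1.07. Fcrls to Cx3cr1 moved the opposite way, from 0.631 to 0.708 in wild type to 0.897 to 1.38 in 5xFAD, higher in 10 of 10. Olfml3 to Cx3cr1 was likewise higher in 10 of 10, with a mean 1.33 times that of wild type. Siglech to Cx3cr1 overlapped between wild type (0.314 to 0.339) and 5xFAD (0.274 to 0.343). Slc2a5 to Cx3cr1 lay below wild type in 9 of 10 5xFAD libraries and above it in none. Selplg and Gpr34 were mixed: Selplg to Cx3cr1 lay below wild type in 8 and above it in 2, and Gpr34 to Cx3cr1 above it in 7 and below it in 1. The ratios to Cx3cr1 thus moved in different directions from marker to marker. A ratio shows unequal change and not which of the pair changed.

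**Figure D4:**
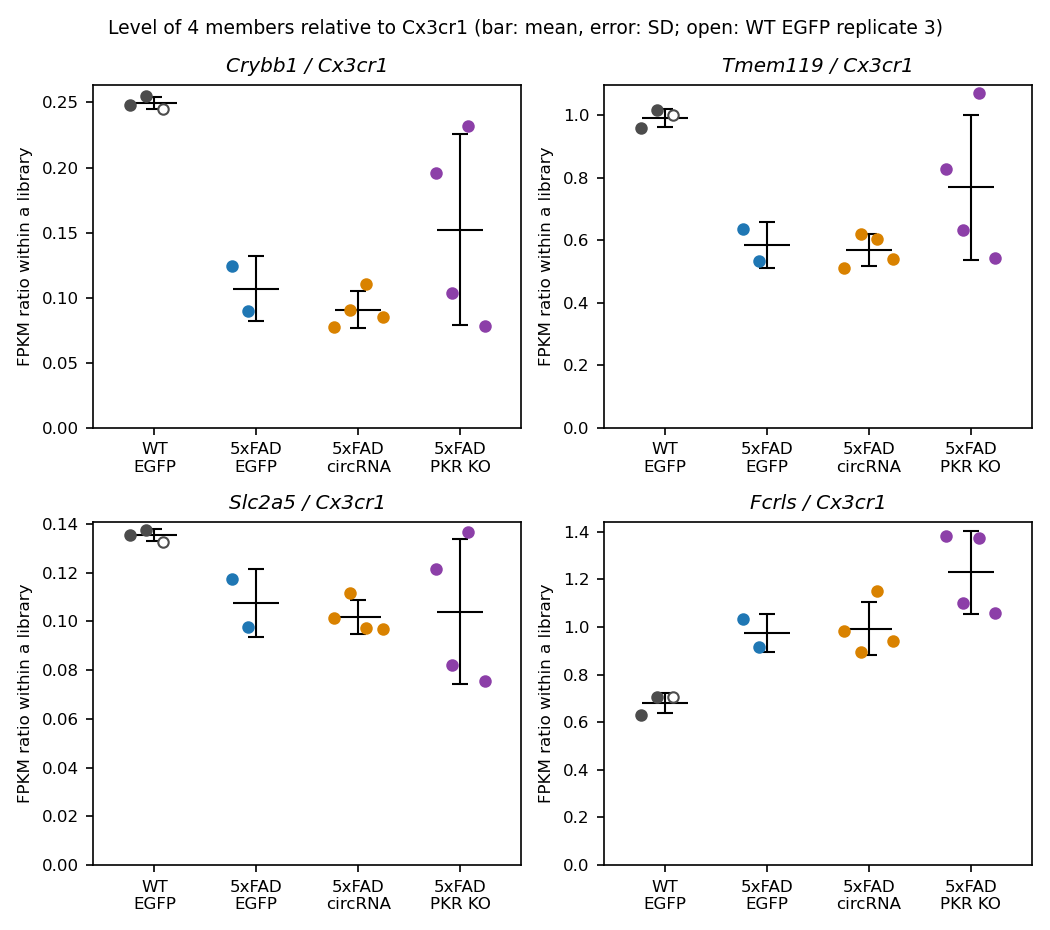
FPKM ratio of Crybb1, Tmem119, Slc2a5 and Fcrls to Cx3cr1 within each library (linear axes from 0), by group, with mean (bar) and SD (error bar); the open point is wild type EGFP replicate 3. Wild type ratios lie close together, at 0.245 to 0.255 for Crybb1, and PKR knockout libraries spread widely, from 0.0780 to 0.232.

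The order of the levels differed between groups. In wild type Cx3cr1 (mean 402 FPKM) and Tmem119 (398) led and did not differ beyond their spread, followed by Selplg (291) and Fcrls (273), which overlapped. Siglech (130), Gpr34 (123), Crybb1 (100.5) and Olfml3 (89.9) followed, each overlapping its neighbour, and Slc2a5 (54.5) was below all of them in every library. In PKR knockout Fcrls led at 374 FPKM, above Cx3cr1 (307) in all 4 libraries, and Crybb1 (45.2) and Slc2a5 (31.3) were lowest. With circRNA and in 5xFAD EGFP, Fcrls and Cx3cr1 were level at the top and Slc2a5 and Crybb1 level at the bottom. Among all genes of a library, Fcrls kept a rank of 35 to 50 over the 13 libraries, while Crybb1 ranged from 88 to 743. Levels are per exon length, so they depend on the annotation used.

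Among the 5xFAD groups no marker passed the test. With circRNA against 5xFAD EGFP 0 of 9 passed, as did 0 of 10817 genes in limma (0%), with 523 genes (4.83%) at an unadjusted p under 0.05. The Tmem119 difference was 0.14 (95% interval -0.44 to 0.71), that of Crybb1 -0.05 (-0.83 to 0.73) and that of Cx3cr1 0.17 (-0.27 to 0.62). In PKR knockout against 5xFAD EGFP 0 of 9 passed, where 0.0832% of genes did, and the differences were 0.29 for Tmem119 (-0.28 to 0.87), 0.33 for Crybb1 (-0.45 to 1.11) and 0.33 for Selplg (-0.19 to 0.84). The intervals hold differences in either direction. Selplg and Fcrls were higher in all 4 PKR knockout libraries than in both 5xFAD EGFP libraries, as were 17.7% of all genes. Oligodendrocyte genes summed to 194 to 322 FPKM in PKR knockout and 502 to 537 in 5xFAD EGFP, and neuron genes to 13.8 to 22.1 and 26.2 to 30.7. Astrocyte, endothelial, mural and border macrophage sums overlapped between these groups. The part of other cells in this separation was not tested. Both comparisons use the same 2 5xFAD EGFP libraries.

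Between circRNA and PKR knockout, 0 of 9 markers passed and 6.19% of all genes did. On the deposited scale the largest difference was in Gpr34, at 131 ± 19.5 FPKM (SD, n = 4) with circRNA and 98.5 ± 20.5 (SD, n = 4) in PKR knockout, a log2 difference of 0.42 (95% interval 0.00 to 0.83, limma adjusted p = 0.193). P2ry13, a purinergic receptor of the related list below, was higher with circRNA (139 ± 21.7 against 88.8 ± 11.8 FPKM, SD, n = 4 each, limma adjusted p = 0.0408), and 1 of the 39 genes of that list passed. Its difference of 0.53 by median ratio did not pass (limma adjusted p = 0.0512). The P2ry13 call was also lost with the replicate number added to the fit, as given at the end. Without wild type replicate 3, which enters this comparison only through the shared spread, 6 genes of the list were higher and 2 lower (12.4% of all genes called), and on the pan-leukocyte scale 5 and 1 (1.37%). The Crybb1 difference was -0.38 (-1.02 to 0.26), and its coefficient of variation in PKR knockout was 40.3%, the largest of any marker and group.

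Within groups the markers shared an order of libraries. In the circRNA group all 9 were highest in replicates 2 and 3, lower in replicate 1 and lowest in replicate 4. The oligodendrocyte genes summed to 264 and 241 FPKM in replicates 2 and 3, and to 594 and 661 in replicates 1 and 4. Neuron sums were 19.6, 8.74, 16.5 and 26.1 FPKM in replicates 1 to 4, and astrocyte sums 170, 79.5, 155 and 120. Endothelial and mural sums were highest in replicate 3, at 72.3 and 55.9 FPKM, so the lists of other cells did not share 1 order. In 5xFAD EGFP all 9 markers were higher in replicate 1. PKR knockout was split: Cx3cr1, Gpr34 and Siglech were highest in replicate 2, then 4, 3 and 1, and the other 6 were highest in replicate 3, then 1, 2 and 4. The summed border macrophage genes (Mrc1, Pf4, Lyve1, Cd163, F13a1, Cbr2, Stab1) followed the second order, at 56.1, 48.4, 59.8 and 38.5 FPKM in replicates 1 to 4. Endothelial sums (56.9, 39.4, 51.4 and 36.7) and mural sums (50.7, 27.1, 44.5 and 29.2) were also higher in replicates 1 and 3 than in 2 and 4. The part of other cells in these orders was not tested.

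**Figure D5:**
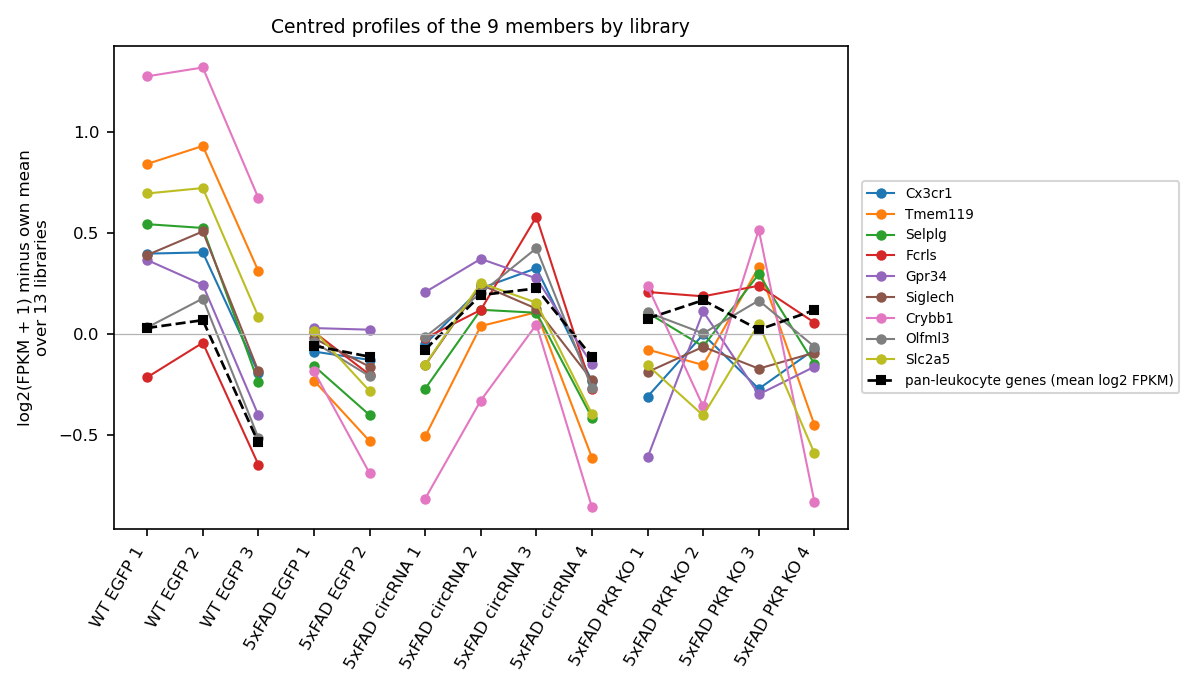
Log2(FPKM + 1) of each marker in each library, centred on the marker's mean over 13 libraries, with the mean log2 FPKM of 12 pan-leukocyte genes (black dashes), lines joining libraries of 1 group only for reading. All markers drop in wild type EGFP replicate 3 with the pan-leukocyte genes, and in PKR knockout the markers split into 2 orders.

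The border macrophage genes also moved with the groups. Their sum was 99.1 to 149 FPKM in wild type, 52.2 to 64.2 in 5xFAD EGFP, 39.4 to 61.6 with circRNA and 38.5 to 59.8 in PKR knockout, with all 7 genes above 0 in each group. Endothelial genes (Cldn5, Pecam1, Flt1, Cdh5, Ly6c1) summed to 58.2 to 129 FPKM in wild type and 24.7 to 72.3 in 5xFAD. Mural genes (Rgs5, Pdgfrb, Vtn, Acta2, Myl9) summed to 62.4 to 136 FPKM in wild type and, with no overlap, 22.5 to 55.9 in 5xFAD. The 6 microglial genes summed to 1822 to 2999.9 FPKM in wild type and 2759.8 to 4154 in 5xFAD, and moved apart from each other. C1qa and C1qb, subunits of the complement initiator C1q, rose with circRNA (0.83 and 0.68, limma adjusted p = 0.0106 and 0.0324) and in PKR knockout (0.93 and 0.95, limma adjusted p = 0.00420 and 0.00423). With wild type replicate 3 left out, the rises of C1qa were 0.59 and 0.69 and that of C1qb in PKR knockout 0.74, each still past the threshold, and C1qb with circRNA no longer passed (0.46, limma adjusted p = 0.104). P2ry12 fell in PKR knockout, as given below, and Csf1r, Aif1 and Itgam did not pass in any 5xFAD group on the deposited scale, with or without that library. The part of these other cells in the lower Crybb1 and Tmem119 of 5xFAD was not tested.

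The genes nearest to each marker were found by the root mean square difference between centred log2(FPKM + 1) profiles over the 13 libraries, a description over points that share libraries. Siglech had the closest neighbour, Slc7a7 (0.0445), an amino acid transporter. Cx3cr1 was nearest to Slc7a8 (0.0711) and Fcrls to Tcn2 (0.0739), a vitamin B12 carrier. Crybb1 had the most distant nearest genes, Dok3 (0.241), Stab1 (0.271), a scavenger receptor that is also in the border macrophage list, and Tmem119 (0.292). Tmem119 was nearest to Abhd15 (0.147), Slc2a5 to Alox5ap (0.104), Gpr34 to Hnmt (0.111), Selplg to 1700017B05Rik (0.0946) and Olfml3 to Pla2g15 (0.0800). Among the markers, Cx3cr1 and Siglech were the most alike (0.0860) and Fcrls and Crybb1 the least (0.818).

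Genes that work with the markers, or are related to them, were listed as well. Of these 22, 15 had enough expression to test. In 5xFAD EGFP 4 were higher and 2 lower (7.65% of all genes higher and 6.35% lower), with circRNA 5 and 2 (17.8% and 8.05%) and in PKR knockout 5 and 5 (17.5% and 19.4%). The median changes were -0.24, -0.17 and -0.32, beside -0.33, -0.24 and -0.37 for the markers, and with wild type replicate 3 left out -0.19, -0.20 and -0.44 beside -0.54, -0.45 and -0.57. Of the higher genes, Slc2a6 and Slc2a3 had a wild type mean under 1 FPKM and met the minimum through the 5xFAD groups, so their part in these counts carries no weight. Tyrobp, the adaptor of Siglech and TREM2, was at 208 ± 60.4 FPKM (SD, n = 3) in wild type, 649 ± 74.4 (SD, n = 2) in 5xFAD EGFP, 723 ± 134 (SD, n = 4) with circRNA and 674 ± 38.4 (SD, n = 4) in PKR knockout, with no overlap between wild type and 5xFAD. It rose by 1.68, 1.82 and 1.74 on the log2 scale (limma adjusted p = 0.00109, 6.30e-05 and 7.14e-05), and Hcst, its relative, by 0.89, 0.92 and 1.04 (limma adjusted p = 0.0292, 0.00584 and 0.00197). With wild type replicate 3 left out, Tyrobp still rose in each (1.41, 1.55 and 1.47), and Hcst rose with circRNA and in PKR knockout (0.78 and 0.91) but no longer passed in 5xFAD EGFP (0.76, limma adjusted p = 0.0592). The whole partner list then had 3 genes higher and 3 lower in 5xFAD EGFP (8.96% and 9.51% of all genes), 4 and 3 with circRNA (15% and 8.81%), and 4 and 4 in PKR knockout (15.3% and 19.7%). On the pan-leukocyte scale it had 4 and 2 (6.12% and 5.06%), 4 and 5 (8.92% and 11.6%), and 4 and 8 (9.3% and 31.5%). With equal FPKM sums 6, 8 and 8 of the list were lower, where 27.7%, 43.3% and 50.1% of all genes were. In that setting 4 were higher in each group, where 708, 995 and 1174 of 10817 genes were. Siglech itself did not rise in any of these groups.

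Of 3 other Siglecs in the partner list, lectins that read sialic acid, 1 rose, 1 fell and Siglec1 did not pass in any group on the deposited scale (-0.42, -0.31 and -0.34). Siglecf rose by 1.45, 1.48 and 1.61 (limma adjusted p = 1.72e-05, 1.47e-06 and 5.35e-07), and Siglece, an inhibitory family member, fell by 1.16, 1.22 and 1.31 (limma adjusted p = 0.00378, 0.000339 and 0.000157). Siglecf rose by 1.296, 1.32 and 1.45 and Siglece fell by 1.33, 1.39 and 1.48 when wild type replicate 3 was left out. Of the hexose transporters, Slc2a6 was at 0.414 ± 0.077 FPKM (SD, n = 3) in wild type and at 3.12 ± 0.19 (SD, n = 2) in 5xFAD EGFP, levels given as a description because the minimum selected it by its 5xFAD values. Slc2a1 (GLUT1), also a transporter of vessel endothelium, went from 73.2 ± 26.2 to 32.9 ± 8.14 FPKM, a change of -1.08 that did not pass (limma adjusted p = 0.0515), nor did the -0.87 without wild type replicate 3 (limma adjusted p = 0.0984). It passed by median ratio (-1.05, limma adjusted p = 0.0394) and with equal FPKM sums (-1.25, 0.0112). Cx3cl1, the ligand of Cx3cr1, was at 2.66 ± 0.94 FPKM (SD, n = 3) in wild type and fell in PKR knockout by 0.79 (limma adjusted p = 0.0109), with 5xFAD EGFP at -0.37 (0.374) and circRNA at -0.58 (0.0569). Leaving out that library gave -0.61 in PKR knockout (limma adjusted p = 0.0424), -0.19 in 5xFAD EGFP (0.620) and -0.40 with circRNA (0.198). The circRNA change passed by median ratio (-0.62, limma adjusted p = 0.0374) and with equal FPKM sums (-0.78, 0.00805). Olfml2b, a relative of Olfml3, fell by 0.71, 0.47 and 1.11 (limma adjusted p = 0.00560, 0.0104 and 2.03e-05), and by 0.87, 0.64 and 1.28 when wild type replicate 3 was left out. The selectins Selp and Sele, which bind Selplg, were below the minimum, as were Olfml2a, Crybb3 and Gpr82, the neighbour of Gpr34.

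A list of 39 further genes linked to homeostatic microglia, all tested, was counted in the same way. In 5xFAD EGFP 3 rose (Irf8, Tgfbr2 and Serpine2) and 3 fell (Gpr165 and Upk1b among them), where 14% of all genes were called. With circRNA 4 rose and 6 fell (25.8%), and in PKR knockout 6 rose and 10 fell (37%), with medians of -0.16, -0.03 and -0.02. Irf8, a transcription factor of microglial identity, was at 30.1 ± 5.36 FPKM (SD, n = 3) in wild type and, with no overlap, at 44.2 ± 0.95 (SD, n = 2) in 5xFAD EGFP, higher by 0.56 on the log2 scale (limma adjusted p = 0.0260) and, with wild type replicate 3 left out, by 0.41 (limma adjusted p = 0.0412). Tgfbr2, the TGF-beta receptor on which homeostatic gene expression depends, rose by 0.66, 0.92 and 0.91 (limma adjusted p = 0.0231, 0.000559 and 0.000438), and by 0.53, 0.79 and 0.78 without that library (limma adjusted p = 0.0425, 0.00157 and 0.00132). Serpine2, a protease inhibitor, rose by 1.47, 1.71 and 1.69 (limma adjusted p = 3.30e-05, 8.99e-07 and 7.74e-07), and by 1.41, 1.64 and 1.63 without it. With the replicate number added to the fit, the calls of Irf8 and Tgfbr2 in 5xFAD EGFP were lost, as given at the end, and that of Serpine2 held.

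P2ry12, the purinergic receptor that guides microglial processes, fell in PKR knockout by 0.94 (limma adjusted p = 0.00227), and its changes of -0.50 in 5xFAD EGFP and -0.38 with circRNA did not pass (limma adjusted p = 0.178 and 0.162). With wild type replicate 3 left out they were -0.74 and -0.62 and passed (limma adjusted p = 0.0146 and 0.0119), and that in PKR knockout was -1.18 (0.000143). The whole list then had 3 genes higher and 13 lower in 5xFAD EGFP (8.96% and 9.51% of all genes), 3 and 11 with circRNA (15% and 8.81%), and 5 and 16 in PKR knockout (15.3% and 19.7%), with medians of -0.37, -0.23 and -0.18. On the pan-leukocyte scale it had 4 higher and 12 lower (6.12% and 5.06%), 4 and 16 (8.92% and 11.6%), and 6 and 20 (9.3% and 31.5%), with medians of -0.22, -0.23 and -0.26. With all libraries on the deposited scale the list was called about as often as all genes in total. Its lower genes numbered 3, 6 and 10 there, where 6.35%, 8.05% and 19.4% of all genes were lower. With equal FPKM sums 11, 16 and 17 were lower (27.7%, 43.3% and 50.1%). The lower share of the list exceeded that of all genes as deposited, without wild type replicate 3 and on the pan-leukocyte scale. With equal FPKM sums it was near that of all genes or below it.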

How the data were processed

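Mouse microglial RNA from 13 libraries in 4 groups was analysed. Per the labels' protocols, RNA was extracted with TRIzol, depleted of ribosomal RNA and made into stranded libraries. The authors deposited 1 table of FPKM values, with 1 column for each library. The submitters' processing notes name mm10, HISAT2 2.1.0, Bowtie2 2.3.5 and featureCounts 1.5.1, without their roles. The annotation and strand setting are not given in the sources used here. FPKM is divided by a library total, so RNA of other cells lowers a marker's value. Depth was recovered with GENCODE M21 exon lengths from low values, of which 90.8% to 93.2% were whole within 0.02 of a fragment.

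Changes were tested with limma 3.58.1 (R 4.3.3) on log2(FPKM + 1) for the 10817 genes whose mean reached 1 FPKM, in 1 model of all libraries with 9 residual degrees of freedom and an intensity trend. The Benjamini-Hochberg adjustment ran over all genes in each of 6 comparisons, with a threshold of 0.05. The pipeline was tested on simulated data. Named genes are the 9 markers, related genes that passed in 5xFAD EGFP or pair with a marker, and, from the 3 genes nearest each marker, the nearest (all 3 for Crybb1). P2ry12, P2ry13 and the microglial list are named outside that rule, after their values were seen. Members and lists were chosen with earlier results of these data known. Replicate libraries differed by more than counting error in all 16 pairs (chi-square of 13.7 to 180 for each degree of freedom). The alternatives were another pseudocount, no filter, 3 rescalings, the compared groups alone, a replicate block and leaving out each library. A few listed genes are not reported here, and summed marker levels leave them out.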

Additional observations from a re-analysis of the deposited data

How the results depend on the processing

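All alternatives were planned. The number of markers called was within 1.5 times the reported 2, 2 and 3 against wild type, except with equal FPKM sums (4, 6 and 6), on the pan-leukocyte scale (6, 6 and 7), with 5xFAD EGFP and wild type alone (1, Tmem119 being lost), and when a library was left out (0 to 5, 2 to 5 and 1 to 7). The highest counts came without wild type replicate 3. The count of 0 came without wild type replicate 1 and without either 5xFAD EGFP library. No marker passed between 5xFAD groups under any alternative. Over all genes, the reported counts were 1514, 2796 and 3997 against wild type, with 54.6%, 68.8% and 47.5% of the called genes higher. Equal sums gave 3709, 5676 and 6595 (19.1%, 17.5% and 17.8% higher), and the compared groups alone gave 509 and 1725 in 5xFAD EGFP and circRNA. On the pan-leukocyte scale 54.8%, 43.4% and 22.8% of called genes were higher. Leaving out a library gave 566 to 1998, 2171 to 2864 and 3104 to 4111. For PKR knockout against 5xFAD EGFP the count was 9, and 0 with a pseudocount of 0.1, no filter or equal sums, 46 by median ratio, 3 on the pan-leukocyte scale, 577 with the groups alone and 0 to 58 without a library. For circRNA against PKR knockout it was 670, and 148 on the pan-leukocyte scale and 147 to 1339 without a library. Where no cause is named it was not tested.

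Markers without a call changed sign as follows. Olfml3 in 5xFAD EGFP was 0.00875 by median ratio. With circRNA against wild type, equal sums and the pan-leukocyte scale gave -0.18 and -0.0944 for Gpr34 and -0.10 and -0.0130 for Olfml3, and in PKR knockout -0.0761 and -0.0837 for Olfml3. With circRNA against 5xFAD EGFP, equal sums, median ratio and the pan-leukocyte scale gave -0.0275, -0.0129 and -0.0529 for Siglech and -0.0160, -0.00162 and -0.0412 for Slc2a5, and the pan-leukocyte scale gave -0.00449 for Tmem119. In PKR knockout against 5xFAD EGFP, Olfml3 was -0.00137 on the pan-leukocyte scale, and with circRNA against PKR knockout it was -0.0247 with equal sums and -0.0678 by median ratio.

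Leaving out 1 library at a time turned other uncalled changes. Against wild type, the range was -0.28 to 0.10 for Gpr34 and -0.23 to 0.12 for Olfml3 in 5xFAD EGFP, -0.13 to 0.26 and -0.0179 to 0.33 with circRNA, and -0.0505 to 0.29 for Olfml3 in PKR knockout. Between circRNA and 5xFAD EGFP it was -0.0121 to 0.29 for Tmem119, -0.30 to 0.20 for Crybb1 and -0.0516 to 0.25 for Slc2a5. Between PKR knockout and 5xFAD EGFP it was -0.11 to 0.0327 for Siglech and -0.29 to 0.00776 for Slc2a5, and between circRNA and PKR knockout -0.23 to 0.0536 for Fcrls and -0.0802 to 0.15 for Olfml3.

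Libraries with the same replicate number deviated together somewhat more than others in all 6 comparisons, from a mean correlation of 0.0223 (others -0.0204; pairs -0.42 to 0.69) for circRNA against wild type to 0.33 (others -0.11) for PKR knockout against 5xFAD EGFP, which has 2 pairs. Deviations were taken from the group mean and balance within a group. The other pairs therefore tend to the opposite sign of the same-number pairs, which widens the gap between them. In no comparison of 3 or more pairs was every pair over 0.1 (0.0363 to 0.55 in the 4 pairs of circRNA and PKR knockout), so the numbers were not taken as pairs. With a replicate block, the markers called were 2, 2 and 3 as before, 22 genes were called for PKR knockout against 5xFAD EGFP, and the block turned Crybb1 with circRNA against 5xFAD EGFP to 0.0658 and, in PKR knockout against 5xFAD EGFP, Cx3cr1 to 0.0301 and Siglech to 0.0606. Among other named genes the block ended the calls of Irf8 (0.54, limma adjusted p = 0.0632) and Tgfbr2 (0.61, 0.0679) in 5xFAD EGFP and of P2ry13 between circRNA and PKR knockout (0.64, 0.0604). Under it Slc2a1 was lower in 5xFAD EGFP (-0.92, 0.0202), and Cx3cl1 with circRNA (-0.59, 0.00921).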
